A study of Mus musculus with 4 samples.

Results

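Chromosome 17 from 80 to 90 Mb of the mouse genome (build GRCm39), called the window here, held 352 of the 80929 accessible regions measured in this study. A region is a stretch covered by the merged peaks of the 4 libraries, joined where they lay at most 1 base apart, and it belongs to the window when its start lies at or above 80 Mb and below 90 Mb. The other 3002 regions of chromosome 17 served as the comparison. The window was chosen with the difference between the groups in view, so that difference is given below as a description, without p-values, and nothing is supported by it.

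Accessible chromatin was mapped by ATAC-seq (a transposase cuts and tags open DNA) in 2 CuNZ@Gel libraries and 2 Gel libraries of RAW264.7 cells, an established mouse macrophage line. Per the labels, 1000000 cells were plated in each well of 12-well plates and collected after 48 h. The sample titles name the groups, and the title of the series describes CuNZ@Gel as a sprayable hydrogel with a nanozyme, a nanomaterial with enzyme-like activity. The treatment text is worded alike for all samples and names CuNZ@Gel alone, so the treatment of the Gel cells is known from the titles only. Labels do not say whether the replicates were separate cultures, so every error given here measures the spread between libraries of 1 cell line, which may be technical.

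Open chromatin sits mainly at promoters and enhancers, where transcription factors keep nucleosomes away, and neighbouring genes often share a domain whose openness is set over long distances. The window carries housekeeping genes for mRNA decay, spliceosome assembly, DNA mismatch repair and calcium sensing beside genes that work mainly in epithelia, gonads, brain and kidney. Reads in a region scale with how open the DNA is, with the share of cells in which it is open and with how many copies of the stretch a cell holds. These cannot be told apart in bulk libraries, and no genomic DNA control was used here.

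Promoter sequences of genes nearest to window regions show which kinds of start sites lie in the window, with 4 genes that were lower and 1 that was higher in CuNZ@Gel. RefSeq gave 103 promoter sequences, each from 250 bases before to 50 bases after a start site, for 78 of the 116 genes. They are from build GRCm38.p6, another build than that of the regions, so whether a region overlaps a promoter was not examined. Each is printed 5′ to 3′ on the gene's strand, and capitals mark every match to the searched letters on either strand. Gemin6 (GRCm38.p6 chr17:80224201-80224500, plus strand) holds 1 CRE match and no other match.
Gemin6: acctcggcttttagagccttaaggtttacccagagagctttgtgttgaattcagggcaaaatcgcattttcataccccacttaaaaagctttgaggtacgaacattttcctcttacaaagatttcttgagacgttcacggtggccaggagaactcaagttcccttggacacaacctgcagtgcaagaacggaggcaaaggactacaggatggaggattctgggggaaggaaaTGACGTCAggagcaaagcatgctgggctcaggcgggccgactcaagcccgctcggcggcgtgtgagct
Fbxo11 (GRCm38.p6 chr17:88065996-88066295, minus strand) holds 2 GC boxes and 2 CCAAT boxes, while its other promoter (chr17:88064492-88064791), not printed, holds 2 GC boxes alone.
Fbxo11: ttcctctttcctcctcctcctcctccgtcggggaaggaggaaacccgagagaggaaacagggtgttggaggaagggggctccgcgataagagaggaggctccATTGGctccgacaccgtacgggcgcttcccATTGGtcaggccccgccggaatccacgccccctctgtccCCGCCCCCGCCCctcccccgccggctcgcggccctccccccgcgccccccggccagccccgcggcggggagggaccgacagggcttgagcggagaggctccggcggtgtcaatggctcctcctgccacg
Stpg4 (GRCm38.p6 chr17:87427692-87427991, minus strand) holds 2 AP-1 matches and 1 CCAAT box.
Stpg4: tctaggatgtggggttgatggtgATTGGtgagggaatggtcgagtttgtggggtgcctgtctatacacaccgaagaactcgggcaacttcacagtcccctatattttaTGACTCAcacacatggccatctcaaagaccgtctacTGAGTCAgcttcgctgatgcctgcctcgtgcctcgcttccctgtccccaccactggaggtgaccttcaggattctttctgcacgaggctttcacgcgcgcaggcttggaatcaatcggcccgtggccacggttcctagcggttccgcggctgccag
Cript (GRCm38.p6 chr17:87025311-87025610, plus strand) holds 3 GC boxes, 1 CCAAT box and 1 PU.1 match, and shares 259 bases with the promoter of its neighbour Pigf on the opposite strand.
Cript: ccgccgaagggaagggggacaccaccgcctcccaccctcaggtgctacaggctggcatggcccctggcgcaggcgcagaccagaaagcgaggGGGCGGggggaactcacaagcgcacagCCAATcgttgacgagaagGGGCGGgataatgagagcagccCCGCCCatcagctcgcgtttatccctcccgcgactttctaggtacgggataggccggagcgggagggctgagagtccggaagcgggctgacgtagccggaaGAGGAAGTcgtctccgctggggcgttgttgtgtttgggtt
Kcnk12 (GRCm38.p6 chr17:87797945-87798244, minus strand) holds 1 GC box.
Kcnk12: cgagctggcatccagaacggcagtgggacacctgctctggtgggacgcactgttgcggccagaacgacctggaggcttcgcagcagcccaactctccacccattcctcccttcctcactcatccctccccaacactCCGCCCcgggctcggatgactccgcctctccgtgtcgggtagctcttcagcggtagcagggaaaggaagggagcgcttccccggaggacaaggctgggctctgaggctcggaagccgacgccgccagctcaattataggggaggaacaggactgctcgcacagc
The letters searched were TGANTCA for AP-1, TGACGTCA for CRE, GGGCGG for the GC box, CCAAT for the CCAAT box, CACGTG for the E-box and GAGGAAGT for PU.1, with a longer motif for NF-kB. No match to one of these motifs can contain a match to another, although neighbouring matches may overlap. A GC box lay in 35.0% of the 103 window promoters and in 35.7% of all 32851 promoters. A CCAAT box lay in 36.9% of window promoters and in 37.4% of all. AP-1 letters lay in 6.80% of window promoters and in 7.81% of all, and the E-box in 7.77% and 7.15%. CRE letters lay in 2.91% of window promoters and 1.79% of all, PU.1 in 2.91% and 3.20%, and NF-kB in 1.94% and 1.63%. By these letters the window promoters resembled those of the genome. A match is a description of the sequence, not a site of binding.

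The libraries differed in reads in regions and in signal over background, and every comparison coincides with that difference. Reads in regions numbered 7440949 and 10236700 in the CuNZ@Gel libraries and 18843501 and 17914757 in the Gel libraries. Region reads per unit of genome background pileup were 6.37 and 8.53, in units of 1000000 reads, in CuNZ@Gel, against 18.8 and 18.6 in Gel. Its part in the window's values was not tested. Chromatin near 10 of 11 macrophage marker genes was accessible, at a mean of 93.1 and 93.4 RPM per gene in CuNZ@Gel and 116 and 117 RPM in Gel, while Tyrobp had no region. RPM are region reads per 1000000 effective reads, the authors' library scale. T and B cell markers averaged 4.38 to 6.36 RPM and fibroblast markers 7.75 to 8.75 RPM per gene over the 4 libraries, with no region near Cd3g, Cd79a, Col1a2 and Dcn. Of the hepatocyte and neuron markers Alb had no region. Rbfox3 had 8.89 to 10.9 RPM and Snap25 had 5.88 to 11.03 RPM over the 4 libraries. Apoa1 had 96.0 and 99.4 RPM in CuNZ@Gel against 55.7 and 60.6 RPM in Gel, in CuNZ@Gel above the mean per macrophage marker. Chromatin near macrophage markers was thus accessible in both groups, and so was chromatin near Apoa1, a gene of hepatocytes.

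The window held a smaller part of the chromosome's accessible reads in CuNZ@Gel than in Gel. Its regions took 5.57% and 5.63% of the chromosome 17 signal in the CuNZ@Gel libraries, against 5.79% and 5.83% in the Gel libraries. The groups did not overlap, and neither did the 95% Wilson intervals, which ran from 5.49% to 5.65% and from 5.56% to 5.69% in CuNZ@Gel and from 5.74% to 5.84% and from 5.78% to 5.88% in Gel. These intervals cover counting error only, not the spread between libraries. The window was chosen with this contrast in view, so nothing is read from the lack of overlap. The group means were 5.60% ± 0.039 in CuNZ@Gel and 5.81% ± 0.027 in Gel (SD, n = 2 each), a difference of -0.210 percentage points. Summed over the window the signal was 2255 and 2301 RPM in CuNZ@Gel and 2965 and 3019 RPM in Gel, a ratio of 0.762. Over the rest of chromosome 17 that ratio was 0.792. Both stretches had less signal in CuNZ@Gel on the deposited scale, and the window slightly less of it than the rest.

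Peaks called in each library alone gave a second readout. The CuNZ@Gel libraries had 172 and 214 peaks that start in the window and the Gel libraries 279 and 277. These were 9.27% and 9.28% of the chromosome 17 peaks in CuNZ@Gel, against 10.6% and 10.9% in Gel. The CuNZ@Gel shares lay below both Gel shares, but their Wilson intervals overlapped, from 8.03% to 10.7% in CuNZ@Gel replicate 1 and from 9.49% to 11.8% in Gel replicate 1. The Gel lists are also longer, and the difference of -1.46 percentage points was -0.112 with the same number of top peaks taken from every library and -1.86 among peaks with -log10 q of at least 5. The size of the difference in peak shares therefore depends on which peaks are counted, and the part of list length in it was not tested.

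**Figure D1:**
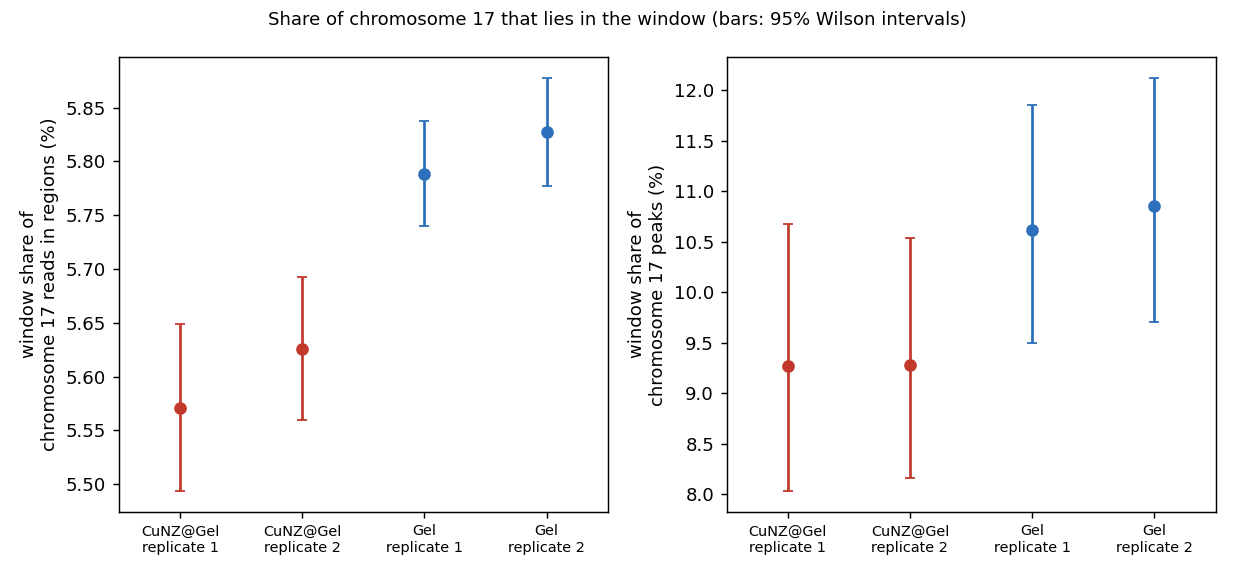
Share of chromosome 17 that lies in the 80 to 90 Mb window, in percent, for each library (CuNZ@Gel red, Gel blue). Points are the share of reads in regions (left) and of peaks (right), and bars are 95% Wilson intervals. In the left panel the CuNZ@Gel libraries sit at 5.57% and 5.63%, below the Gel libraries at 5.79% and 5.83%.

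Among the 342 window regions that passed the filter on low values, 84 (24.6%) were called lower in CuNZ@Gel, against 25.2% in the rest of chromosome 17 and 21.9% of all 77014 regions tested. Another 46 (13.5%) were called higher, against 18.9% in the rest of the chromosome and 21.2% of all, and 212 were not called. Called means a limma adjusted p under 0.05 (Benjamini-Hochberg over all regions). The window was chosen on this contrast, so nothing is read from these shares, and the share called lower was not above that of the rest of the chromosome. The median log2 change was -0.19 in the window (quartiles -0.50 and 0.18), against -0.06 in the rest of chromosome 17 (quartiles -0.40 and 0.39). Single regions ran from -1.38 to 1.89, so the window holds strong changes of both signs around a modest shift. In 157 window regions (45.9%) both CuNZ@Gel libraries lay below both Gel libraries, against 37.9% in the rest of chromosome 17 and 34.6% of all regions. In 79 (23.1%) both CuNZ@Gel libraries lay above, against 31.2% in the rest and 33.7% of all. The 10 regions that did not pass were too weakly covered to fit.

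The shift was clearer once the change was set free of its trend with level. On the deposited scale the strongest regions of the other autosomes had a median change of -0.49 and the weakest one of 0.29, and the window holds weaker regions than the rest of the chromosome. Its regions had a median level of 2.23 on the log2(RPM + 1) scale and a median width of 479.5 bases, against 2.79 and 508 bases in the rest. After cyclic loess, which removes the trend, the median change was -0.32 in the window and -0.06 in the rest. Then 94 regions (27.5%) were called lower, against 13.9% in the rest of the chromosome and 13.8% of all, and 39 (11.4%) higher, against 18.1% in the rest and 18.8% of all. Of the 84 regions called lower on the deposited scale, 71 were also called lower after loess. In all, 72.2% of window regions lay below 0 after loess and 54.9% of those in the rest of chromosome 17.

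The lower values held at every level of the regions. All tested regions were divided by mean level into 5 equal classes, from the weakest to the strongest. In the weakest class the median change was -0.09 over 90 window regions and 0.29 over the rest of chromosome 17. In the middle class it was -0.13 over 62 window regions and 0.02 over the rest. In the strongest class it was -0.67 over 35 window regions and -0.48 over the rest. The gap between the window and the rest was thus widest among weak regions, at -0.38, and between -0.23 and -0.15 in the other 4 classes. After loess the window classes lay between -0.45 and -0.23 and those of the rest between -0.10 and -0.01.

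**Figure D2:**
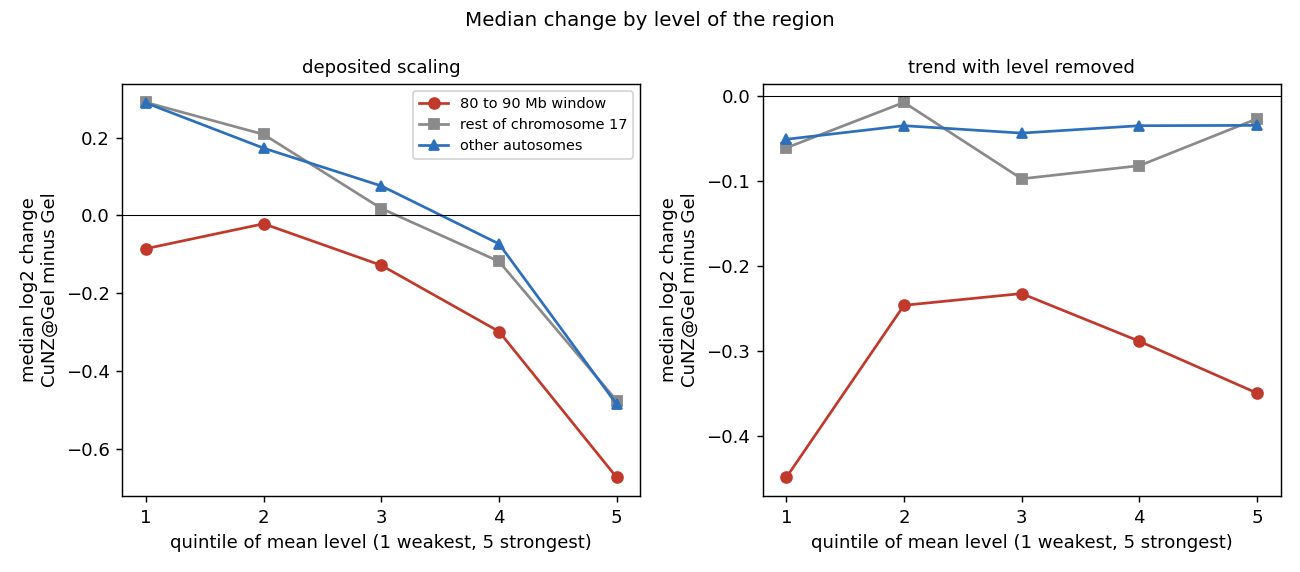
Median log2 change (CuNZ@Gel minus Gel, y axis) in 5 classes of mean level (x axis, 1 weakest to 5 strongest), for the window (red), the rest of chromosome 17 (grey) and the other autosomes (blue), on the deposited scale (left) and after cyclic loess (right). The window lies below both others in every class, at -0.09 in the weakest class and -0.67 in the strongest on the deposited scale.

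Each CuNZ@Gel library taken against each Gel library showed the lower window. The median difference in the window minus that in the rest of the chromosome was -0.10 and -0.19 where CuNZ@Gel replicate 1 was set against the Gel libraries, and -0.09 and -0.14 where CuNZ@Gel replicate 2 was. Between replicates of a group it was 0.00 in CuNZ@Gel and -0.03 in Gel. After loess the 4 pairs between groups gave -0.29 to -0.22, while the replicate pairs gave -0.02 in CuNZ@Gel and -0.03 in Gel. The gap between groups was larger than that between replicates in all 4 pairs, but the pairs share libraries and are not independent. The window was also chosen with the contrast between groups in view, so nothing is read from this.

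**Figure D3:**
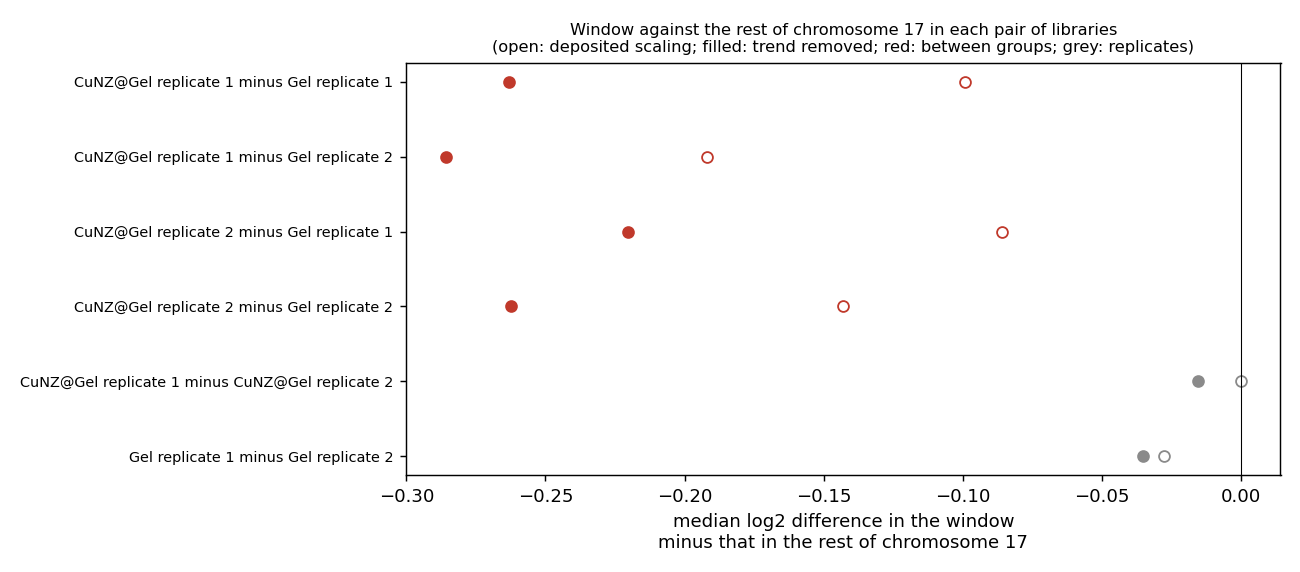
Median log2 difference in the window minus that in the rest of chromosome 17 (x axis) for each pair of libraries (rows), between groups (red) and between replicates (grey). Open points are on the deposited scale and filled points after cyclic loess. The pairs between groups lie at -0.29 to -0.22 after loess, and the replicate pairs at -0.03 and -0.02.

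Along the chromosome the lower medians spread over the window, with bins that differed in their calls. Bins of 1 Mb with at least 20 tested regions numbered 8 in the window and 44 outside. On the deposited scale 7 of the 8 window bins lay below the median of the rest, as did 17 of the 44 others. There the window bins ranged from -0.31 to -0.025 and the others from -0.31 to 0.41. On that scale 24 of the 44 others lay at or below the highest window bin. After loess all 8 window bins and 21 of the 44 others lay below the median of the rest. The window bins then ranged from -0.45 to -0.19 and the others from -0.29 to 0.20. The lowest bin ran from 87 to 88 Mb, with a median of -0.45 over 63 regions, of which 24 were called lower and 4 higher on the deposited scale. The bin from 81 to 82 Mb went the other way in its calls, with 1 region lower and 8 higher among 31. Over all regions tested 21.9% were called lower and 21.2% higher. That bin had a median of -0.12 on the deposited scale and -0.24 after loess, and a log2 ratio of summed RPM of -0.02. The lowest bin contains Calm2, Stpg4, Ttc7, Rhoq and Cript, which were called lower as gene sums. It also contains Tmem247, Gm41647 and Mir12190, which were called higher, and Pigf and Epas1, which were not called. The next lowest bin, at -0.38 over 43 regions, lies at the start of the window and contains Gemin6. The bin from 79 to 80 Mb, just outside, had -0.29 over 31 regions, which places it among the window bins. At the other end the last window region, near Lhcgr, starts at base 89120452, and bins from 91 to 96 Mb hold at most 7 regions, so the upper limit falls in a stretch nearly free of accessible regions.

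**Figure D4:**
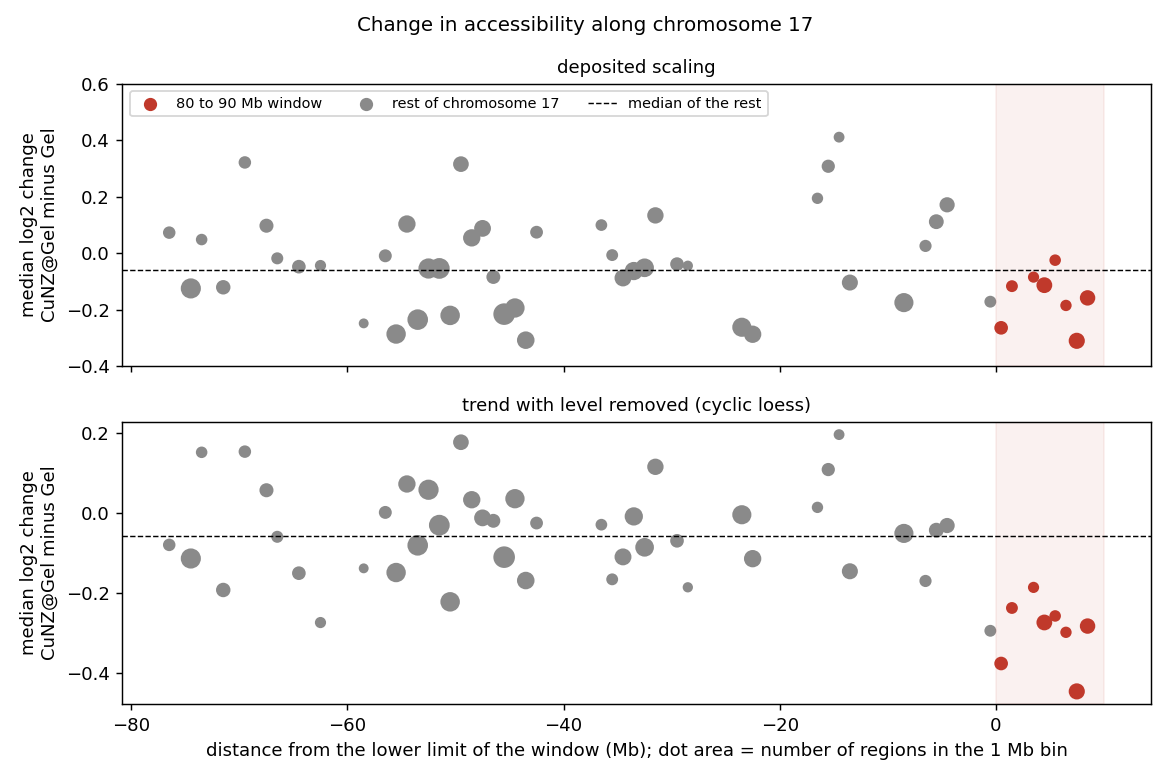
Median log2 change (CuNZ@Gel minus Gel, y axis) of regions in 1 Mb bins along chromosome 17 (x axis, distance in Mb from the lower limit of the window), on the deposited scale (top) and after cyclic loess (bottom). Dot area shows the number of regions, red dots lie in the window and the dashed line marks the median of the rest. After loess the 8 window bins lie between -0.45 and -0.19, and 4 of the 44 other bins lie at or below the highest of them. On the deposited scale 24 of the 44 other bins do so.

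The regions next to the limits had small changes of both signs below and above 80 Mb. Just below 80 Mb, the region near Rmdn2 changed by 0.11 and those near Gm33006 by -0.28 and -0.20 on the log2 scale. Just above it, the region near Cyp1b1 changed by 0.09 and those near Gm49984 by -0.60 and 0.22. None of these 6 was called on the deposited scale. At the upper limit the last window regions were near Gm38460, at 0.48, and Lhcgr, whose 2 regions were too weak to test. The next regions beyond it were near Gm20491 at 0.14, Adcyap1 at -0.48 and Gm25935 at 1.78.

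Set among 229 autosomal bins of 10 Mb with at least 100 tested regions, the window had the lowest median after loess, at -0.32, while the other autosomal bins ranged from -0.18 to 0.20. On the deposited scale its rank from the lowest was 3. This order is part of how the window was found and is given as a description. The 6 bins of chromosome X lay at a like level, from -0.36 to -0.26 after loess.

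Regions with a peak called in the Gel libraries alone were a larger part of the window than of the rest. A region without a called peak in a library may still hold reads there. Of the 352 regions, 54 (15.3%) had a peak in both Gel libraries and in neither CuNZ@Gel library, against 9.76% of the other chromosome 17 regions and 11.05% of all regions. Their median change was -0.38 in the window and -0.19 in the rest, and 13 of the 54 were called lower while 41 were not called. In the same class 30 of 293 regions were called lower in the rest of chromosome 17 and 1417 of 8940 over all regions. Peaks in both CuNZ@Gel libraries and in neither Gel library marked 8 regions, and all 8 were called higher, as were 58 of the 61 such regions in the rest of chromosome 17 and 1739 of 1849 over all regions. The class is defined by the groups, so these counts are no result about the window. The 8 regions lay near Cdkl4, Slc8a1 and the predicted gene Gm30117 (2 each) and the predicted genes Gm41649 and Gm36826. The Gel libraries had more reads in regions and longer peak lists, and the part of this in these classes was not tested. In 137 regions all 4 libraries had a peak; there the median change was -0.28 in the window and -0.27 in the rest on the deposited scale, a gap of -0.01. After loess these values were -0.25 and -0.01. The gap in this subset therefore depends on the scale.

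In the same 137 regions the ratios of peak height and of surroundings between the groups were close to those in the rest. The background around the summit, recovered from the authors' fold and p-value of each peak, was lower in CuNZ@Gel by a median log2 ratio of -0.76 in the window and -0.68 in the rest. The summit pileup had a median log2 ratio of -1.08 in the window and -1.10 in the rest. These pileups are raw read depths, not scaled between libraries. CuNZ@Gel had fewer reads in regions, but its genome background pileup was 1.168 and 1.201, against 1.003 and 0.962 in Gel. The part of these differences in both ratios was not tested. Over all peaks of each library, window peaks stood on a sparser background than other chromosome 17 peaks. Over those lists the median background was 1.503 and 1.753 in CuNZ@Gel and 1.59 and 1.57 in Gel within the window, and 2.84 and 3.00 in CuNZ@Gel and 2.79 and 2.74 in Gel in the rest.

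Summed by gene, 115 of the 116 window genes could be tested, and 46 (40%) were called lower in CuNZ@Gel, against 42.4% of the other genes of chromosome 17 and 36.1% of all 25900 genes. A further 12 (10.4%) were called higher, against 16.8% of the other genes of the chromosome and 20.5% of all. The gene value adds the RPM of all regions that the authors assign to a gene as its nearest, and all regions of these genes lie in the window. Their median change was -0.29, against -0.19 for the other genes of chromosome 17 and -0.10 for all genes. After loess 44 (38.3%) were called lower, against 27.4% of the other genes of the chromosome and 22.8% of all, and 14 (12.2%) higher, against 20.8% and 24.2%; 32 genes were lower on both scales and 11 higher on both. Of the 116 genes 49 carry a gene symbol, and the other 67 are predicted genes, RIKEN clones and small RNAs. Loess was applied to gene values and region values apart, so a gene with 1 region has its own value on each. The directions below are relative to the deposited scaling. Scaling to the genome background pileup moved the median of all genes to -1.06. On that scale the genes of the lists below were all below 0. The values of Morn2, Atl2 and Tmem247 on that scale are not given here.

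Of 9 tested genes of signalling and immune regulation, 6 were called lower, 1 higher and 2 not, with a median of -0.51, where 36.1% of all genes were lower and 20.5% higher. After loess 5 were lower and 1 higher, where 22.8% of all genes were lower and 24.2% higher. With lists this short and chosen with results known, nothing is read from the counts of this or the following lists. Calm2, 1 of the genes for calmodulin, the calcium sensor of the cell, had 16.36 and 16.98 RPM in CuNZ@Gel against 47.6 and 42.5 RPM in Gel. This fall of -1.38 ± 0.11 (log2 change ± SE) was the largest of the named genes, rests on its only region (GRCm39 chr17:87753810-87754817), and was -1.23 after loess. Fbxo11, which encodes the substrate-binding subunit of a ubiquitin ligase, had 36.0 and 37.0 RPM in CuNZ@Gel and 74.7 and 74.0 RPM in Gel. It fell by 1.01, and by 0.69 after loess. Ttc7, whose human counterparts help place a lipid kinase at the plasma membrane, had 52.6 and 58.4 RPM in CuNZ@Gel against 94.3 and 93.0 RPM in Gel, and 4 of its 5 regions were called lower. Rhoq, a small GTPase of membrane traffic, had 36.7 and 30.7 RPM in CuNZ@Gel against 54.7 and 57.0 RPM in Gel. For these genes the groups lay far apart relative to the spread within them.

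The remaining genes of that list moved less or the other way. Socs5, a suppressor of cytokine signalling, had 5.45 and 6.66 RPM in CuNZ@Gel and 7.87 and 10.3 RPM in Gel. Its change of -0.51 lost its call without CuNZ@Gel replicate 1 (-0.39) and without Gel replicate 2 (-0.34). Sos1, an exchange factor that activates Ras, was called lower at -0.35, but not without Gel replicate 2 (-0.22), nor after loess (-0.07). Ppm1b, a serine/threonine phosphatase that acts on stress and inflammatory kinases, was the 1 gene of the list called higher. It had 14.1 and 20.3 RPM in CuNZ@Gel against 9.10 and 9.16 RPM in Gel, a change of 0.82 ± 0.17, and 3 of its 5 regions were called higher. Prkce, protein kinase C epsilon, stood at -0.02, and its 7 regions differed in direction. The region at GRCm39 chr17:86469136-86469725 had 3.76 and 4.44 RPM in CuNZ@Gel against 7.99 and 6.13 RPM in Gel, a change of -0.65. That at chr17:86761699-86762075 had 7.03 and 4.89 RPM in CuNZ@Gel against 1.75 and 1.67 RPM in Gel, a change of 1.34. Map4k3, a kinase of nutrient and stress signalling, was not called at 0.15. It had 21.1 and 31.0 RPM in CuNZ@Gel around 22.7 and 23.3 RPM in Gel. Without CuNZ@Gel replicate 1 it was at 0.41.

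Of 5 tested genes for RNA binding and processing, 3 were called lower and none higher, with a median of -0.33, beside 36.1% lower and 20.5% higher of all genes. After loess 2 were lower, beside 22.8% of all genes. Gemin6, a subunit of the SMN complex that assembles spliceosomal particles, had 43.6 and 47.5 RPM in CuNZ@Gel against 101 and 96.2 RPM in Gel. Its change was -1.10 ± 0.07, and -0.74 after loess. Most of it came from the region at GRCm39 chr17:80513892-80515284, with 27.4 and 32.4 RPM in CuNZ@Gel against 79.9 and 76.9 RPM in Gel. Zfp36l2, which binds AU-rich elements and speeds the decay of short-lived mRNAs, had 50.7 and 47.7 RPM in CuNZ@Gel and 97.0 and 97.8 RPM in Gel. It fell by 0.97, and by 0.61 after loess, in its only region (chr17:84494940-84496357). In both genes the CuNZ@Gel libraries lay well below the Gel libraries. Srbd1, named for its RNA-binding domain, was called lower at -0.33, but not without any of CuNZ@Gel replicate 1 (-0.29), Gel replicate 1 (-0.25) or Gel replicate 2 (-0.40). The helicase gene Dhx57 at -0.23 and Thumpd2, a gene with a THUMP domain, at -0.12 were not called.

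Among genes of DNA repair, chromatin and transcription, Foxn2, Mta3 and Msh6 were called lower and Epas1 was not, beside 36.1% lower and 20.5% higher of all genes. After loess Foxn2 and Mta3 were still called lower and Msh6 was not, beside 22.8% lower of all genes. The counts of the whole list are not given here. Foxn2, a forkhead transcription factor, had 37.2 and 40.4 RPM in CuNZ@Gel against 57.8 and 63.7 RPM in Gel. Its change was -0.63 ± 0.09, and -0.33 after loess. Mta3, a subunit of the NuRD repressor complex, had 38.4 and 38.3 RPM in CuNZ@Gel and 53.7 and 58.8 RPM in Gel. Its change was -0.54, and -0.24 after loess, and 2 of its 8 regions were called lower. Msh6, a mismatch repair gene, was called lower at -0.23 and lost its call without CuNZ@Gel replicate 1 (-0.20), Gel replicate 1 (-0.24) or Gel replicate 2 (-0.22), and it was at 0.05 after loess and on totals of reads. Epas1, a hypoxia-inducible transcription factor, was not called at -0.19, and its values of 14.7 and 15.5 RPM in CuNZ@Gel lay below 17.4 and 17.3 RPM in Gel.

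Of 11 tested genes listed as mitochondrial, lysosomal and metabolic, 5 (45.5%) were called lower, none higher and 6 not, with a median of -0.43. That share is near the 36.1% of all genes and the 42.4% of the other genes of chromosome 17. After loess 6 were called lower, beside 22.8% of all genes. Cript, listed there although it encodes a PDZ-binding protein known from synapses, had 17.6 and 17.6 RPM in CuNZ@Gel against 30.6 and 32.2 RPM in Gel, a change of -0.80 ± 0.11. Pigf, a GPI anchor synthesis gene whose promoter overlaps that of Cript, was not called at 0.27, with 6.42 and 4.98 RPM in CuNZ@Gel and 4.96 and 4.14 RPM in Gel. The assignment of regions to the nearest gene is the authors', and the difference between these neighbours was not tested. Camkmt, a methyltransferase of calmodulin, was at -0.64 and had 1 region called lower and 1 called higher. Mcfd2, a cargo receptor between endoplasmic reticulum and Golgi, was at -0.60. Cox7a2l, which helps assemble respiratory supercomplexes, was at -0.57, with 24.4 and 25.1 RPM in CuNZ@Gel against 37.0 and 37.4 RPM in Gel. Galm, galactose mutarotase, was at -0.48 and lost its call without CuNZ@Gel replicate 1 (-0.27). Atp6v1e2, a proton pump subunit known from testis, was not called at -0.43, but was called lower after loess (-0.64) and without CuNZ@Gel replicate 2 (-0.71). Cyp1b1 (0.09), the sterol exporter gene Abcg8 (0.00), the amino acid transporter subunit Slc3a1 (-0.22) and the kynurenine pathway gene Haao (-0.12) were not called.

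The list of tissue-restricted, neuronal and reproductive genes had 14 tested members, of which 8 were called lower, 2 higher and 4 not, with a median of -0.39, beside 36.1% lower and 20.5% higher of all genes. After loess 5 were lower and 2 higher, beside 22.8% and 24.2% of all genes. Several of those that fell are broadly expressed, among them Dync2li1, a light intermediate chain of ciliary dynein, at -0.82 ± 0.17, and Thada at -0.55. Dync2li1 had 6.18 and 7.11 RPM in CuNZ@Gel against 12.2 and 12.8 RPM in Gel, without overlap. Tmem178, a membrane protein that restrains calcium signals in osteoclast precursors, was at -0.65, with 20.6 and 18.8 RPM in CuNZ@Gel and 30.3 and 32.7 RPM in Gel. Epcam, the epithelial adhesion molecule, had 1 weak region with 0.242 and 1.07 RPM in CuNZ@Gel against 1.75 and 1.98 RPM in Gel. Its change of -0.84 lost its call without CuNZ@Gel replicate 1 (-0.47), Gel replicate 1 (-0.90) or Gel replicate 2 (-0.78). The homeobox gene Six3 at -0.39 lost its call without CuNZ@Gel replicate 1 (-0.30) or Gel replicate 2 (-0.27). Ston1, an endocytosis adaptor gene, at -0.40 lost it without Gel replicate 2 (-0.33). Six2 at -0.47 and the luteinizing hormone receptor gene Lhcgr at -0.38 were not called.

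Kcnk12 and Plekhh2 were the 2 members of that list called higher. Kcnk12, a potassium channel subunit, rose by 0.76 ± 0.14, with 19.0 and 20.7 RPM in CuNZ@Gel against 10.9 and 11.7 RPM in Gel, and was at 0.73 after loess. Kcng3, another channel subunit, was not called at 0.12. Plekhh2 rose by 0.72 ± 0.22, with 5.82 and 5.60 RPM in CuNZ@Gel and 3.09 and 3.03 RPM in Gel, and lost its call without Gel replicate 2 (0.71) and after loess (0.49). On the background scale Kcnk12 was at -0.23, Ppm1b at -0.15 and Plekhh2 at -0.13. Slc8a1, the sodium/calcium exchanger and the gene with most window regions, was at -0.01, with 1 of its 13 regions called lower and 4 higher, and was called higher after loess (0.29).

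Some genes with many regions held regions called in both directions. Among them Eml4, Ppp1r21 and Cdkl4 were called lower as a sum on the deposited scale. Others had calls in 1 direction only, such as Mta3 over 8 regions, with 2 called lower and 0 higher. Eml4, a microtubule-binding protein, was at -0.25 over 11 regions, 2 called lower and 2 higher, and lost its call without Gel replicate 1 (-0.19). Ppp1r21, a protein of endosome traffic, was at -0.38 over 11 regions, 4 lower and 1 higher, and the kinase gene Cdkl4 at -0.33 over 8, 3 lower and 2 higher. After loess they stood at 0.07, 0.02 and -0.02. Stpg4, which has 1 region, had 20.5 and 17.3 RPM in CuNZ@Gel against 35.4 and 38.4 RPM in Gel and was at -0.93 ± 0.11. The other 3 genes with a symbol, Morn2 (-0.65), Atl2 (-0.41) and Tmem247 (0.43), belong to no list.

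**Figure D5:**
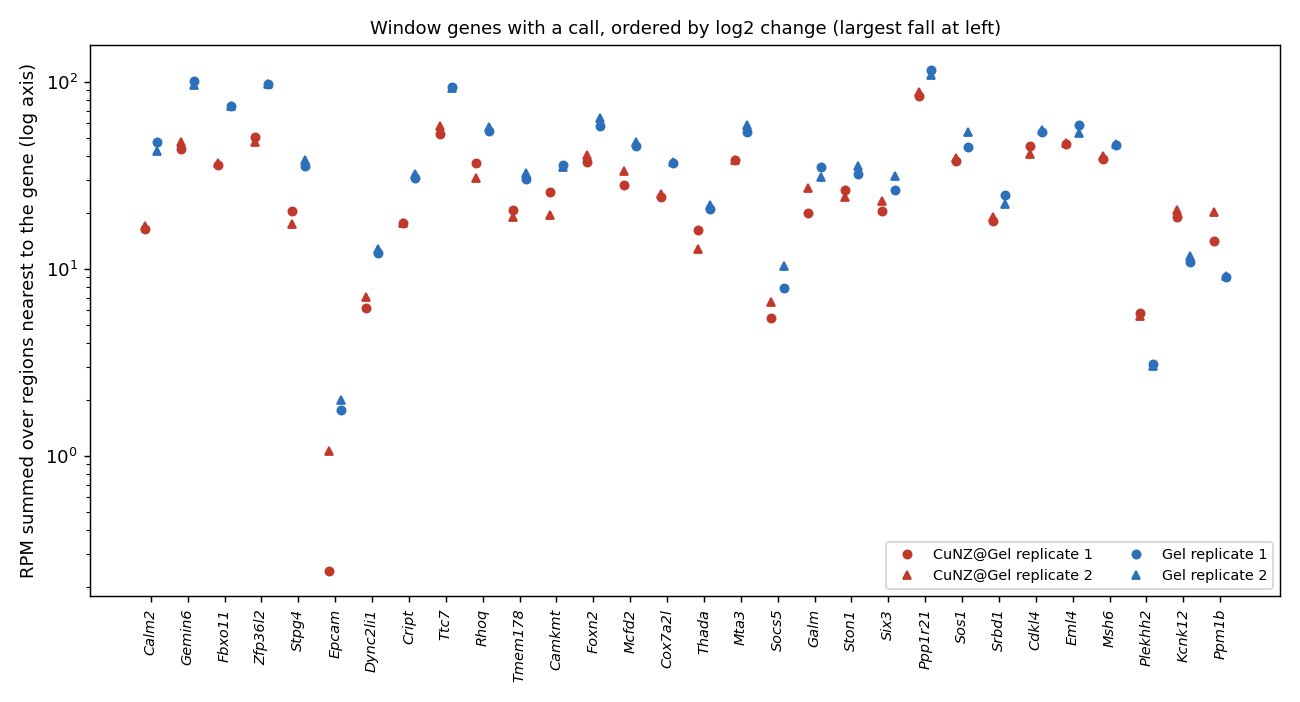
RPM summed over the regions nearest to each gene (y axis, log scale) in every library for called genes on the role lists, with the most regions or with the largest changes by the naming rule, ordered by log2 change (x axis, largest fall at left). CuNZ@Gel libraries are red and Gel libraries blue, circles are replicate 1 and triangles replicate 2. Calm2 at the left has 16.36 and 16.98 RPM in CuNZ@Gel against 47.6 and 42.5 RPM in Gel, and of the genes drawn Plekhh2, Kcnk12 and Ppm1b at the right are higher in CuNZ@Gel.

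The 5 strongest window regions were lower in CuNZ@Gel, as most strong regions were on the deposited scale. In the strongest class of mean level 94.3% of the 35 window regions lay below 0, against 87.5% in the rest of chromosome 17 and 85.0% on the other autosomes. The region at GRCm39 chr17:85264433-85265546, 1114 bases nearest to the RIKEN clone 1110020A21Rik, had 57.2 and 58.6 RPM in CuNZ@Gel and 112 and 111 RPM in Gel. That near Fbxo11 (chr17:88373139-88374074) had 30.6 and 31.9 RPM in CuNZ@Gel and 66.3 and 66.6 RPM in Gel. With those near Zfp36l2, Gemin6 and the clone 4833418N02Rik they make up the 5 highest by mean level, not corrected for length, and their changes ran from -1.36 to -0.85. After loess all 5 were still called lower, from -0.86 to -0.26.

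The largest rises among regions with a peak in all 4 libraries lay mostly near predicted genes. The region near Gm41649 (GRCm39 chr17:88158772-88159345) had 15.03 and 14.92 RPM in CuNZ@Gel against 4.66 and 5.51 RPM in Gel, a change of 1.40 ± 0.17. A pair of regions near Gm24492 (chr17:84641557-84642142 and chr17:84640217-84640696) rose by 1.24 and 1.18. The region near Gm31499 (chr17:88502587-88503347) rose by 1.18, with 14.8 and 12.3 RPM in CuNZ@Gel against 4.43 and 6.56 RPM in Gel. All 4 were called higher after loess too, so the window holds regions that were higher in CuNZ@Gel within a stretch of mostly lower values.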

How the data were processed

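ATAC-seq was run on 4 RAW264.7 libraries, 2 per group. Build GRCm39 and the tools MACS2 2.2.8, Picard 2.27.5, SAMtools 1.17, Bowtie2 2.3.4.3 and fastp 0.23.1 are named per the submitters' processing notes, without their roles. The authors deposited a log2 value per region and library, read here as log2(RPM + 1) because 100% of low values were within 0.1 of a whole number of reads once the logarithm was reversed. They also deposited peak lists per library with a fold (a ratio over background), -log10 of p- and q-values and a score derived from q. These deposited ratios and scores describe peaks within their list only. The lowest -log10 q was 1.303, 1.303, 1.306 and 1.304 in CuNZ@Gel replicates 1 and 2 and Gel replicates 1 and 2. A merge of the 4 lists gave 80929 regions, as many as the value tables have rows and in their order, which gave each region its coordinates, counted from 1. A RefSeq table places the genes of 77103 regions, and 77101 lay on the chromosome it gives.

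Regions kept had at least 10 reads at the median depth (0.710 per 1000000 region reads) in 2 libraries or more and 15 over all libraries; 4 rows that name no gene were dropped. Regions and gene sums were fitted with limma 3.58.1 under R 4.3.3 (two-sided, trend of variance with level, Benjamini-Hochberg adjustment over all features, threshold 0.05), which was tested on simulated data. Changes are CuNZ@Gel minus Gel on a log2 scale with a pseudocount of 1 RPM, which understates changes of low values. Tables and figures used Python 3.11.15, scipy 1.17.1 and matplotlib 3.10.9. Alternatives covered scaling, filters, pseudocount, voom weights, the replicate number as a block, each library left out and narrower limits. The members, role lists and rules were chosen with earlier results of these data known. Genes named are those with a symbol that are on a role list, have the most regions (10) or, at or above the median gene level of 4.41, the largest falls or rises (up to 5 each); regions named are the 5 strongest, the 5 largest falls and rises with a peak in all 4 libraries, and those next to the limits. Some results are not reported here. Regions outside this rule, including those with peaks in 1 group alone and the Prkce region that was lower, were chosen after their values were seen.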

Additional observations from a re-analysis of the deposited data

How the results depend on the processing

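Direction and size depended most on the scaling between libraries. With totals of reads in regions the window median was 0.014, with 46 regions lower and 71 higher and 23 genes lower and 22 higher; the median of all regions moved to 0.22 on that scale. With the genome background pileup the window median was -0.96, the window minus the rest was -0.049, and calls were 238 regions lower and 9 higher and 97 genes lower and 1 higher; the median of all regions was -0.82. Cyclic loess gave -0.32 for the window and -0.26 for the window minus the rest. In regions with a peak in all 4 libraries these were -0.28 and -0.008, with 18 regions higher, and in the same regions after loess, an alternative chosen after seeing the data, -0.25 and -0.24. The window median was -0.26 with the stricter filter and -0.24 with voom. The share of reads differed by -0.113 percentage points with the window narrowed to 81 to 89 Mb, and the share of peaks by -1.28 there, by -1.86 for peaks with -log10 q of at least 5 and by -0.112 with equal numbers of top peaks. The cause of these shifts was not tested.

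Leaving out 1 library gave 57 to 81 regions lower and 35 to 49 higher, 35 to 47 genes lower and 10 to 15 higher, a window median of -0.24 to -0.16 and a window minus the rest of -0.17 to -0.09. The share of reads then differed by -0.237 to -0.182 percentage points and the share of peaks by -1.58 to -1.34. With the replicate block 86 regions were lower and 47 higher and 48 genes lower and 12 higher. Across tested regions, replicate 1 minus replicate 2 in CuNZ@Gel had a correlation of 0.016 with that in Gel. With 4 libraries this cannot show whether a shared number marks a shared culture or day, which the labels do not say. Median-of-ratios scaling, no filter and a pseudocount of 0.5 changed none of the counts and medians by more than 1.5 times or 1 SD between library pairs.

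Among the named genes, signs changed as follows. With the background pileup, Abcg8 was at -0.83, Cyp1b1 at -0.83, Kcng3 at -0.87, Kcnk12 at -0.23, Map4k3 at -0.87, Pigf at -0.62, Plekhh2 at -0.13 and Ppm1b at -0.15. With totals of reads, Dhx57 was at 0.035, Eml4 at 0.030, Epas1 at 0.076, Haao at 0.14, Msh6 at 0.050, Prkce at 0.26, Slc3a1 at 0.054, Slc8a1 at 0.27 and Thumpd2 at 0.16. After loess, Abcg8 was at -0.24, Cyp1b1 at -0.091, Eml4 at 0.066, Msh6 at 0.047, Ppp1r21 at 0.020, Prkce at 0.046, Slc8a1 at 0.29 and Thumpd2 at 0.0083. With peaks in all 4 libraries Prkce was at 0.83, and with median-of-ratios scaling Slc8a1 at 0.00054. With 1 library left out, signs changed for genes that were not called: Abcg8 ran from -0.16 to 0.17, Cyp1b1 ran from -0.11 to 0.28, Haao ran from -0.36 to 0.12, Map4k3 ran from -0.12 to 0.41, Prkce ran from -0.20 to 0.17 and Slc8a1 from -0.11 to 0.098.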

Other observations

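Chromosome X, which is no part of the comparison above, had values close to those of the window. Its 1379 tested regions had a median log2 change of -0.24 on the deposited scale and -0.32 after cyclic loess, and 75.2% of them lay below 0 after loess. On the deposited scale 421 (30.5%) were called lower and 163 (11.8%) higher (limma, Benjamini-Hochberg adjustment), against 21.9% and 21.2% of all regions tested. After loess 425 (30.8%) were lower and 116 (8.41%) higher, against 13.8% and 18.8% of all. In the strongest class of mean level its median was -0.71, against -0.67 in the window and -0.48 in the rest of chromosome 17. The predicted gene Gm30117, chosen after its values were seen, had 11.2 and 12.8 RPM in CuNZ@Gel against 1.98 and 2.41 RPM in Gel, the largest rise of the window genes at 2.02 ± 0.20 (log2 change ± SE).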
